A study of Mus musculus with 28 samples.

Results

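5-FU and cisplatin were compared as single chemotherapies in AB1-HA tumors, subcutaneous tumors of a mouse mesothelioma cell line, in female BALB/c.AusBP mice of 8 to 10 weeks. The comparison took the tumors labelled as treated with 5-FU alone (n = 5) and with cisplatin alone (n = 4), which are 9 of the 28 tumors of the series, and every gene that passed a filter on low counts. Treatment began when tumors measured 20 to 25 mm2. 5-FU was dosed at 75 mg/kg into a vein and cisplatin at 6 mg/kg into the peritoneum, so that drug, dose and route cannot be told apart. Tumors were harvested on day 7 of treatment. Levels in tumors of mice given PBS (n = 4) were set beside both groups. The same drug contrast was then taken in mice that also received immune checkpoint blockade (ICB), namely 5-FU+ICB (n = 5) and cisplatin+ICB (n = 5). ICB was 1 dose of anti-CTLA-4 and 3 of anti-PD-L1, at 100 µg a dose. Tumors treated with ICB alone (n = 5) entered the model but no comparison. RNA came from whole frozen tumors and was sequenced as single reads of 100 bases.

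5-FU is a pyrimidine analog that blocks thymidylate synthase and is built into RNA and DNA, whereas cisplatin binds DNA and crosslinks it. Both kinds of damage can activate the transcription factor p53, which drives genes of growth arrest and cell death. Cells make cholesterol from acetyl-CoA through the mevalonate pathway, whose enzymes are switched on together by the factor SREBP2 when sterols are scarce. HIF-1 is the factor that low oxygen stabilises, and it drives glycolytic enzymes and pH regulators such as carbonic anhydrase 9. Immediate-early genes such as Fos and Egr1 respond to growth factors and stress without new protein synthesis. Osteoclasts are bone-resorbing cells of the macrophage lineage, and several of their enzymes are also made by macrophages in tumors.

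The authors deposited estimated counts per gene, which were rounded and scaled to CPM, the counts of a gene relative to a library size normalized by TMM. Total counts lay between 23541485 and 32424475 in the 9 tumors, and the mean totals did not differ detectably (two-sided exact permutation p = 0.698). The mitochondrial share of the counts was 3.87% ± 1.66 (SD, n = 5) with 5-FU and 2.00% ± 0.506 (SD, n = 4) with cisplatin (two-sided exact permutation p = 0.0317, where 0.0159 is the smallest the design allows), and 1.99% ± 0.343 (SD, n = 4) with PBS. With 1 tumor left out, the exact permutation p for this share was 0.0571 or 0.0714 in 7 of 9 cases. It was 0.0286 without 5-FU replicate 1 and 0.0357 without cisplatin replicate 1. Fewer tumors raise the smallest p that the design allows, and the difference stayed between 1.13 and 2.15 percentage points. This share was 6.80% in 5-FU replicate 3, and its part in the results below was not tested. Of the 28 tumors, cisplatin+ICB replicate 1 and 5-FU+ICB replicate 5 stood apart from the rest, with the lowest median correlations with the other tumors (0.851 and 0.853), and counts are also given without them. In bulk tumors, fewer cells of a type and less RNA per cell cannot be told apart.

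Compared with cisplatin, 5-FU treated tumors had lower RNA of 10 cholesterol synthesis genes, 4 HIF-1 targets, 3 glycolysis genes, 4 osteoclast genes and the granzymes D, E and G, and higher RNA of 3 immediate-early genes and of the chemokine Ccl7. EdgeR's quasi-likelihood test, fitted across all 6 groups, found 67 differentially expressed genes (DEGs) among the 18521 tested, which is 0.362% of them. DEGs were called at a Benjamini-Hochberg adjusted p under 0.05 with a log2 fold change beyond 0.5 either way. Of these, 50 were lower (0.270% of all genes) and 17 were higher (0.0918%) with 5-FU than with cisplatin. In 65 of the 67 the CPM of the 2 groups were fully apart, as they were in 12.5% of all genes tested (5.29% higher and 7.22% lower with 5-FU). The exceptions were Atf3 and Gm6377. The median log2 fold change over all genes was -0.02.

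**Figure D1:**
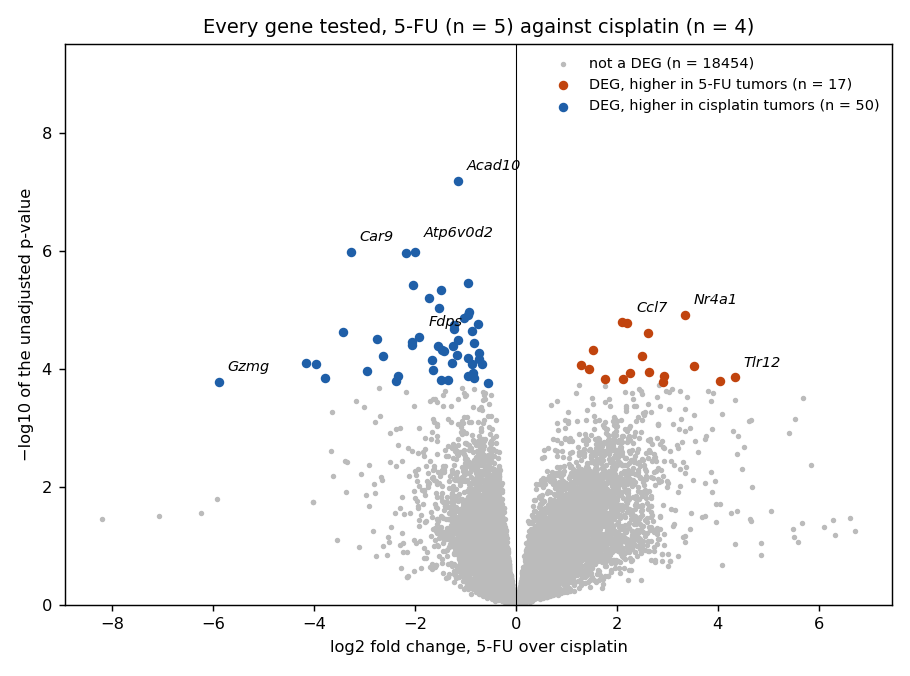
Each point is 1 of the 18521 genes tested. The horizontal axis is the log2 fold change of 5-FU over cisplatin and the vertical axis the −log10 of the unadjusted p. The 50 DEGs on the left were higher with cisplatin and the 17 on the right higher with 5-FU, and Acad10 had the smallest p.

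The number of DEGs differed with the tumors in the fit and with the tool, and the cause was not tested. All 67 were also DEGs when only the PBS, 5-FU and cisplatin tumors were fitted, but that fit called 805 higher (4.68% of the genes it tested) and 542 lower (3.15%). DESeq2 called 487 higher and 176 lower, including 66 of the 67. Without the 2 tumors that stood apart, edgeR called 739 higher and 752 lower. The fit without each tumor in turn called between 0 and 40 higher and between 1 and 40 lower. Without cisplatin replicate 2, 0 higher and 1 lower were left, and that 1 was Acad10. Without cisplatin replicate 3 it was 0 and 6, without cisplatin replicate 4 1 and 14, without 5-FU replicate 3 2 and 11, without 5-FU replicate 4 14 and 15, and without 5-FU replicate 5 0 and 11. Without cisplatin replicate 1 there were 9 higher and 40 lower, without 5-FU replicate 2 18 and 32, and without 5-FU replicate 1 40 and 37.

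Against PBS, the same model called 825 DEGs for 5-FU (4.45% of all genes), 526 higher (2.84%) and 299 lower (1.61%), and 0 for cisplatin, where 296 genes (1.60%) had an unadjusted p under 0.05 and DESeq2 called 3. The smallest adjusted p of cisplatin against PBS was 0.149. For 5-FU against PBS, 45 DEGs were left without PBS replicate 1, 154 without PBS replicate 2, 95 without PBS replicate 3, 225 without PBS replicate 4, 176 without 5-FU replicate 3 and 102 without 5-FU replicate 5. These contrasts share tumors with that of 5-FU against cisplatin, so their values are given side by side below and no overlap is read from them.

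The cholesterol synthesis genes that were lower with 5-FU came from early and late steps of the pathway. Of 23 listed genes, 10 were DEGs, all lower, and 20 were lower at an unadjusted p under 0.05, where 6.62% of all genes were. The list's median log2 fold change was -1.46. It was -1.62 for 5-FU against PBS and -0.28 for cisplatin against PBS. The fit of the PBS, 5-FU and cisplatin tumors alone called 18 members lower. In the fit of 6 groups, 0 were called without cisplatin replicate 2 or 3, 2 without 5-FU replicate 3, 3 without 5-FU replicate 4 or 5, 5 without cisplatin replicate 4 and 6 without 5-FU replicate 1, with medians from -1.53 to -1.28 over the 9 fits that left out a tumor.

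Hmgcs1, the enzyme that makes HMG-CoA at the entry to the pathway, had 50.7, 74.3, 45.6, 74.8 and 102 CPM in the 5-FU tumors and 132, 197, 197 and 130.2 CPM in the cisplatin tumors. Every 5-FU tumor was below every cisplatin tumor, and the log2 fold change was -1.24 ± 0.25 (SE; adjusted p = 0.0266). Mvd, which makes isopentenyl diphosphate, had 8.82, 9.17, 9.62, 9.53 and 10.5 CPM with 5-FU and 20.6, 36.1, 30.02 and 22.6 CPM with cisplatin (log2 fold change -1.52 ± 0.28, adjusted p = 0.019). The 5-FU tumors lay within a narrow band for this gene, at less than the lowest cisplatin tumor.

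Fdps, which makes farnesyl diphosphate, had 53.6, 95.8, 39.1, 60.8 and 59.1 CPM with 5-FU, 149.7, 361, 244 and 172 CPM with cisplatin and 356, 237, 315 and 242 CPM with PBS. Its log2 fold change of -1.91 ± 0.38 (adjusted p = 0.0247) was the greatest decrease among the 10. Fdft1, the squalene synthase at the branch point to sterols, had 26.2 to 41.4 CPM with 5-FU and 71.9 to 142 CPM with cisplatin (log2 fold change -1.65 ± 0.35). Sqle, the epoxidase that follows it and limits the rate of the sterol branch, had 33.8, 52.5, 25.5, 45.3 and 45.03 CPM with 5-FU and 85.3, 153, 134 and 98.3 CPM with cisplatin (log2 fold change -1.54 ± 0.31, adjusted p = 0.0266). For each of these 3 genes the PBS tumors lay above all 5-FU tumors, and PBS and cisplatin overlapped.

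Lss, which closes the first sterol ring system, had a log2 fold change of -1.42 ± 0.29. The later enzymes Nsdhl (-1.46 ± 0.30), Hsd17b7 (-1.49 ± 0.26) and Sc5d (-1.23 ± 0.23) were also DEGs. Hsd17b7 had the smallest adjusted p of the list, 0.0125, with 9.89, 11.1, 7.44, 13.2 and 12.8 CPM with 5-FU and 24.4, 37.6, 35.7 and 24.6 CPM with cisplatin. Stard4, a carrier of cholesterol inside cells that is in no list and was chosen after its values were seen, was lower with 5-FU too (-1.22 ± 0.24, adjusted p = 0.0219).

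Promoters of 6 of the 10 lower genes were found in the RefSeq promoter table (GRCm38.p6). They were searched over the 250 bases before the start for TCACNCCAC, a form of the sterol regulatory element, on both strands. Of the 6, only Hmgcs1 held it, against 1.05% of all 32851 promoters. The promoter is shown because the gene opens the pathway, on the + strand at chr13:119690101-119690350, with the match in capitals:
Hmgcs1: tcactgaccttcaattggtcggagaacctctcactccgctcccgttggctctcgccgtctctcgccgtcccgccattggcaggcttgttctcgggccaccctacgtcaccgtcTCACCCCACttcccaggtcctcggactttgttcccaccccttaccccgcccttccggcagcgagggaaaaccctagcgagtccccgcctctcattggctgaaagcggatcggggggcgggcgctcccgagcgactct

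Some HIF-1 target genes were lower with 5-FU, with the widest gap at Car9. Of 23 listed targets, 4 were DEGs, all lower, namely Car9, Ankrd37, Pdk1 and Kdm3a. The list's median log2 fold change was -0.55, with a range from -3.27 to 1.43. At an unadjusted p under 0.05, 12 members were lower and 1 was higher, where 6.62% and 8.91% of all genes were. The fit of the PBS, 5-FU and cisplatin tumors called 10 lower and 1 higher, and DESeq2 8 and 1. In the fit of 6 groups, 0 were DEGs without cisplatin replicate 2, and 2 were without cisplatin replicate 3 or 4 or 5-FU replicate 3.

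Car9, the carbonic anhydrase that exports acid from hypoxic cells, had 2.38, 1.62, 2.58, 1.62 and 2.55 CPM with 5-FU and 13.7, 27.9, 25.7 and 15.9 CPM with cisplatin. PBS tumors had 12.6, 23.8, 12.3 and 10.1 CPM. The group means with cisplatin and 5-FU were 9.68-fold apart, and the log2 fold change was -3.27 ± 0.51 (adjusted p = 0.00514). It remained a DEG in 8 of the 9 fits that left out a tumor. Ankrd37, a small ankyrin repeat protein induced by low oxygen, had 1.34, 0.863, 1.11, 1.01 and 1.004 CPM with 5-FU and 4.91, 6.93, 7.04 and 7.73 CPM with cisplatin (log2 fold change -2.64 ± 0.55). Every 5-FU tumor was at less than every cisplatin and PBS tumor for both genes.

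Pdk1, the kinase that shuts pyruvate out of the mitochondrial citric acid cycle, had 18.03, 14.7, 16.4, 14.7 and 19.2 CPM with 5-FU, 49.8, 76.9, 71.1 and 75.2 CPM with cisplatin and 67.1, 89.8, 56.02 and 56.3 CPM with PBS (log2 fold change -2.04 ± 0.35, adjusted p = 0.0119). Kdm3a, a histone H3 lysine 9 demethylase, differed less, with 28.9 to 37.9 CPM against 61.1 to 76.4 CPM (log2 fold change -0.95 ± 0.17). Vegfa, the main growth factor for vessels, had overlapping values and was not a DEG (log2 fold change -0.55 ± 0.32, adjusted p = 0.405). The glucose transporter Slc2a1 was not a DEG either (-0.49 ± 0.21, adjusted p = 0.274).

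All 4 lower HIF-1 targets had promoters in the table, 7 in all. ACGTG, a form of the core of the hypoxia response element, was searched on either strand. It was present in 2 of the 7, those of Car9 and Ankrd37, and in 16.6% of all promoters. None of the 6 promoters of the 3 glycolysis DEGs held ACGTG. The other form of the core, GCGTG, was not searched, so the absence of ACGTG does not show that the element is absent. Car9 lies on the + strand (promoter at chr4:43506776-43507025) and Ankrd37 on the - strand (chr8:45999851-46000100). The sequences are written along the gene's own strand with ACGTG or its reverse complement CACGT in capitals:
Car9: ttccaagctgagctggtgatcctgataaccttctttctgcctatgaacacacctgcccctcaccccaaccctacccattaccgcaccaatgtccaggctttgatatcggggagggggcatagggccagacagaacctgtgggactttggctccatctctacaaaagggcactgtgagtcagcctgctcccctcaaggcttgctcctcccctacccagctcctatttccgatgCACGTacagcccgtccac
Ankrd37: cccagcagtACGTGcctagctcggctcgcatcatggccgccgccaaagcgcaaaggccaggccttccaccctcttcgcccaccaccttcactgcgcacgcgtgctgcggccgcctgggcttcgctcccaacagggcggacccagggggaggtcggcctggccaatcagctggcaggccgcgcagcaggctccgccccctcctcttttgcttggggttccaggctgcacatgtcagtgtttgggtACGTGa

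Some glycolysis genes were lower with 5-FU as well. Of 18 listed genes, 3 were DEGs, all lower, 13 were lower at an unadjusted p under 0.05, where 6.62% of all genes were, and the median log2 fold change was -0.70. Aldoc, an aldolase isoform, had 1.95, 1.47, 3.96, 1.44 and 2.04 CPM with 5-FU and 9.12, 13.03, 7.85 and 9.09 CPM with cisplatin (log2 fold change -2.17 ± 0.34, adjusted p = 0.00514). Pfkl, the liver isoform of phosphofructokinase, had 76.3, 76.7, 67.5, 67.7 and 72.2 CPM with 5-FU and 125, 158, 166 and 104 CPM with cisplatin (log2 fold change -0.94 ± 0.16). Eno1, the main enolase, had 319.8 to 493 CPM against 556 to 797 CPM (log2 fold change -0.83 ± 0.17). None of the 3 had overlapping 5-FU and cisplatin values. The fit of the PBS, 5-FU and cisplatin tumors called 11 members lower and 1 higher, and DESeq2 called 7 lower. In the fit of 6 groups, 0 were DEGs without cisplatin replicate 2 and 1 without cisplatin replicate 3.

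Eno1b, on chromosome 18, is in no list, was chosen after its values were seen, is a near copy of Eno1 and had a log2 fold change of -0.93 ± 0.17. How reads were shared between these copies is uncertain, so the values of Eno1 and Eno1b are not independent. Gapdh, a gene often used as a reference, had 1622, 1895, 1379.7, 1494 and 1325 CPM with 5-FU and 1962, 2869, 2941 and 2097 CPM with cisplatin and was not a DEG in the fit of 6 groups (log2 fold change -0.68 ± 0.17, adjusted p = 0.0688). In the fit of the PBS, 5-FU and cisplatin tumors it was one (adjusted p = 0.0327). Markers of mesothelial and tumor cells summed to 174 to 279.7 CPM with 5-FU, 279.9 to 382 CPM with cisplatin and 334 to 479 CPM with PBS. This sum moved in the direction of the glycolysis, HIF-1 target and cholesterol synthesis genes, and its part in those results was not tested. The mesothelin gene Msln, whose values are given below, made up a large part of the sum in the cisplatin tumors. Msln was lower with 5-FU and was not a DEG, so the sum does not stand for the list as a whole. Of the 5 members tested, 3 had a log2 fold change above 0 and 2 below, with a median of 0.50. The sum and the median of this list thus had opposite directions in the fit of 6 groups. The median was below 0 by DESeq2 (-0.13), with no filter (-0.092), with a minimum of 10 counts (-0.36) and in the 2 groups alone (-0.39).

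**Figure D2:**
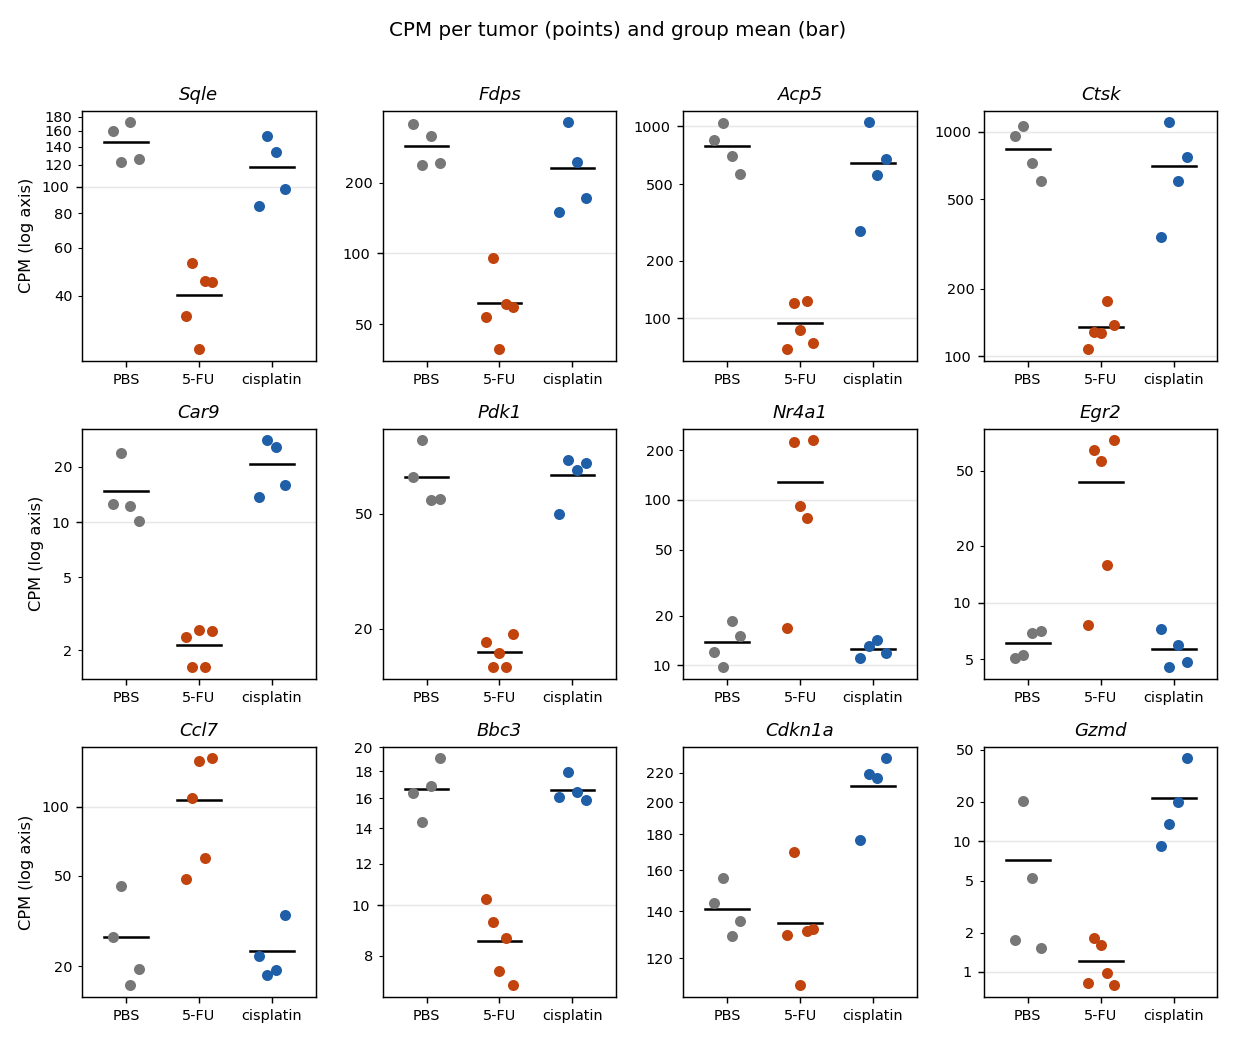
Each point is the CPM of 1 tumor on a log axis, by group (PBS n = 4, 5-FU n = 5, cisplatin n = 4), and the bar is the group mean. Sqle, Fdps, Acp5, Ctsk, Car9, Pdk1 and Bbc3 were low in all 5-FU tumors, Nr4a1, Egr2 and Ccl7 were high in most of them, Cdkn1a was highest in the cisplatin tumors, and Gzmd was high in the cisplatin tumors and varied among the PBS tumors.

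Some genes of osteoclasts were lower with 5-FU, among them the abundant Acp5 and Ctsk. Of 17 listed genes, 4 were DEGs, all lower with 5-FU, 11 were lower at an unadjusted p under 0.05, where 6.62% of all genes were, and the median log2 fold change was -1.05. Without cisplatin replicate 2 the median was -0.66 with 0 DEGs, 1 DEG was left without 5-FU replicate 3 or 5 or cisplatin replicate 3 or 4, and 2 without 5-FU replicate 1 or 4. The fit of the PBS, 5-FU and cisplatin tumors called 8 lower and DESeq2 7. Acp5, tartrate-resistant acid phosphatase, had 68.98, 119.9, 87.5, 123 and 74.3 CPM with 5-FU, 286, 1049, 556 and 672 CPM with cisplatin and 845, 1036, 699.8 and 564 CPM with PBS. The means of cisplatin and 5-FU were 6.77-fold apart (log2 fold change -2.76 ± 0.55, adjusted p = 0.0251). Ctsk, the collagen-degrading protease cathepsin K, had 108, 128, 127, 176 and 138 CPM with 5-FU and 339, 1103, 605 and 772 CPM with cisplatin (log2 fold change -2.38 ± 0.54, adjusted p = 0.0468). Cisplatin replicate 2 was the highest and cisplatin replicate 1 the lowest of the cisplatin tumors for both genes, and each was above all 5-FU tumors.

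Atp6v0d2, a subunit of the proton pump that acidifies the resorption pit, had 12.5, 20.5, 18.7, 21.4 and 13.7 CPM with 5-FU and 41.6, 107, 65.2 and 65.3 CPM with cisplatin (log2 fold change -2.005 ± 0.31, adjusted p = 0.00514). Oscar, the osteoclast-associated immunoglobulin-like receptor, had 0.301, 0.719, 0, 0.428 and 0.143 CPM with 5-FU and 2.25, 7.85, 4.16 and 3.67 CPM with cisplatin (log2 fold change -3.78 ± 0.84). One 5-FU tumor, replicate 3, had a count of 0 for Oscar. The sodium-proton antiporter Slc9b2 had 4.93, 7.23, 1.29, 10.7 and 4.59 CPM with 5-FU and 22, 79.1, 36.2 and 48.7 CPM with cisplatin, which did not overlap, but it missed the threshold (log2 fold change -3.01 ± 0.75, adjusted p = 0.0651).

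Calcr, the calcitonin receptor, was low in all tumors, with 0.0445 to 0.214 CPM with 5-FU and 0.625 to 1.14 CPM with cisplatin (adjusted p = 0.0835). The matrix protease Mmp9 had 152 to 307 CPM with 5-FU and 471 to 898 CPM with cisplatin (log2 fold change -1.50 ± 0.51, adjusted p = 0.16). General macrophage markers were not lower. They summed to 2237 to 8074 CPM with 5-FU and 975 to 2316 CPM with cisplatin. No match to TGANTCA, the AP-1 element, was present in the 5 promoters of the 3 osteoclast DEGs that were in the table, against 6.75% of all promoters.

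Some immediate-early genes were higher with 5-FU, and unevenly so among its tumors. Of 28 genes tested, 3 were DEGs, all higher. At an unadjusted p under 0.05, 22 were higher and 1 was lower, where 8.91% of all genes were higher. The median log2 fold change was 1.52. The fit of the PBS, 5-FU and cisplatin tumors called 17 members higher and 0 lower. Without 5-FU replicate 1 the fit of 6 groups called 12 higher, and it called 0 without 5-FU replicate 5 or cisplatin replicate 2, 3 or 4, and 1 without 5-FU replicate 2 or 3 or cisplatin replicate 1.

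Nr4a1, an orphan nuclear receptor induced by many stimuli, had 16.7, 225, 92.1, 77.5 and 229 CPM with 5-FU and 11.1, 13.1, 14.2 and 11.9 CPM with cisplatin. PBS tumors had 12, 9.73, 18.6 and 15.02 CPM. The log2 fold change was 3.35 ± 0.62 (adjusted p = 0.019), and 5-FU replicate 1 stood only just above the cisplatin tumors. Egr2, a zinc finger factor, had 7.59, 64.6, 56.02, 15.8 and 72.3 CPM with 5-FU and 7.28, 4.53, 5.97 and 4.86 CPM with cisplatin (log2 fold change 2.93 ± 0.65). Atf3, a stress-induced factor of the ATF family, had 6.93, 50.1, 54.3, 15 and 62.6 CPM with 5-FU and 5.97, 4.04, 4.43 and 9.68 CPM with cisplatin (log2 fold change 2.64 ± 0.58). Replicate 1 was the lowest of the 5-FU tumors for all 3 genes, and for Atf3 it lay below the highest cisplatin tumor.

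Fosb, a partner of Jun in AP-1, had the largest fold change of the list but was not a DEG. It had 21.8, 1261, 586, 433 and 1237 CPM with 5-FU and 9.499, 9.41, 13.05 and 23.2 CPM with cisplatin (log2 fold change 5.68 ± 1.36, adjusted p = 0.0582). Fos had 29.7, 305, 82.1, 69.5 and 251 CPM with 5-FU and 29.4, 27.3, 23.1 and 23.8 CPM with cisplatin (adjusted p = 0.0553). Egr1 (2.08 ± 0.62, adjusted p = 0.114) and Jun (0.87 ± 0.28, adjusted p = 0.145) also missed the threshold. For Fosb, Fos, Egr1 and Jun as well, replicate 1 was the lowest 5-FU tumor and replicate 2 the highest.

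Ccn1, a secreted matrix protein induced early by growth factors and mechanical strain, was the DEG of the fibroblast and TGF-beta list. It had 112, 712, 358, 259 and 569.5 CPM with 5-FU, 73.7, 110.4, 94.8 and 98.7 CPM with cisplatin and 113, 103, 130.4 and 116 CPM with PBS (log2 fold change 2.09 ± 0.39, adjusted p = 0.02), and remained a DEG in 4 of the 9 fits that left out a tumor. It followed the same order of tumors, lowest in 5-FU replicate 1 and highest in replicate 2. The median of the 20 genes of that list was 0.73, and 8 were higher at an unadjusted p under 0.05, where 8.91% of all genes were. With only the PBS, 5-FU and cisplatin tumors fitted, edgeR called 7 of them higher, and over all 6 groups DESeq2 called 2. The 19 listed collagens had a median of 0.73, 0 of them were DEGs by edgeR in the fit of 6 groups, and 7 were higher at an unadjusted p under 0.05, where 8.91% of all genes were. DESeq2 called 2 of them higher, edgeR's fit of the PBS, 5-FU and cisplatin tumors 3, and the fit without the 2 tumors that stood apart 7.

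The 3 immediate-early DEGs had 7 promoters in the table, 5 of them overlapping or neighbouring starts of Egr2. Of the 7, 5 held TGACG, the short element bound by CREB and ATF factors, on 1 of the strands, as did 17.8% of all promoters, and each gene had at least 1 such promoter. The Nr4a1 promoter, on the + strand at chr15:101266596-101266845, held 4 matches and is shown because this gene had the smallest adjusted p among the higher DEGs. All 4 read CGTCA, the reverse complement, in capitals:
Nr4a1: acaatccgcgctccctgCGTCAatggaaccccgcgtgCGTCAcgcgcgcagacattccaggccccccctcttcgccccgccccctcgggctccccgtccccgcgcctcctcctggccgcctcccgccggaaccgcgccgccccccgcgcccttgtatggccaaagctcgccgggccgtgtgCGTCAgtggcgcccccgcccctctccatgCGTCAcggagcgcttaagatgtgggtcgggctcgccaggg

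The inflammatory genes Ccl7 and Nfkbiz were higher with 5-FU. Of 23 NF-kB targets and cytokines, these 2 were DEGs, 17 were higher at an unadjusted p under 0.05 and 0 lower, where 8.91% and 6.62% of all genes were, and the median log2 fold change was 1.62. Ccl7, a chemokine that attracts monocytes, had 48.2, 109.7, 158, 59.6 and 163 CPM with 5-FU and 22.2, 18.4, 19.3 and 33.6 CPM with cisplatin (log2 fold change 2.21 ± 0.42, adjusted p = 0.02). Nfkbiz, a nuclear regulator of secondary NF-kB targets, had 20.2, 97.3, 54.5, 34.9 and 114 CPM with 5-FU and 19.1, 9.91, 10.1 and 14.2 CPM with cisplatin (log2 fold change 2.26 ± 0.50). Its lowest 5-FU tumor, replicate 1, was close to the highest cisplatin tumor. Fitted on the PBS, 5-FU and cisplatin tumors alone, edgeR called 13 members higher. Over all 6 groups DESeq2 called 14 and the fit without the 2 tumors that stood apart 13. Ccl7 remained a DEG in 5 of the 9 fits that left out a tumor and Nfkbiz in 2.

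The cytokines themselves missed the threshold in the fit of 6 groups. Il1b had 26.4, 101, 104, 28.1 and 113 CPM with 5-FU and 16.6, 15.2, 9.39 and 20.6 CPM with cisplatin (adjusted p = 0.0885), and Tnf had 5.07, 12.4, 15.8, 5.07 and 20.7 and 3.94, 2.82, 1.78 and 3.88 CPM (adjusted p = 0.102). The Tnf groups did not overlap. Ptgs2, the inducible cyclooxygenase, had overlapping groups (15.8 to 117 against 16.4 to 38.2 CPM). The heat shock protein gene Hspa1a had 0.6301, 8.77, 6.101, 3.33 and 12.05 CPM with 5-FU and 0.937, 0.419, 0.4696 and 0.563 CPM with cisplatin (adjusted p = 0.0955), with replicate 1 again the lowest of the 5-FU tumors.

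Of 22 interferon gamma genes, 0 were DEGs by edgeR in the fit of 6 groups, 17 were higher at an unadjusted p under 0.05, where 8.91% of all genes were, and the median log2 fold change was 1.28. DESeq2 called 11 of them higher and the fit of the PBS, 5-FU and cisplatin tumors 14. Cxcl9, a chemokine for activated T cells, had 276, 359, 1609, 147 and 644 CPM with 5-FU and 113, 62.9, 35.2 and 129 CPM with cisplatin (log2 fold change 2.84 ± 0.65, adjusted p = 0.0513). Cd274, which encodes PD-L1, had 33.5, 52.4, 79.9, 17.2 and 61.6 CPM with 5-FU and 23.1, 10.7, 10.1 and 15.8 CPM with cisplatin (log2 fold change 1.71 ± 0.49, adjusted p = 0.107). Ifng itself was low, with 0.642 to 5.21 CPM with 5-FU and 0.235 to 0.781 CPM with cisplatin. Replicate 3 was the highest 5-FU tumor for Cxcl9, Cd274 and Ifng and replicate 4 the lowest.

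Type I interferon-stimulated genes had a median of 0.42 over 29 genes. By edgeR 0 were DEGs in the fit of 6 groups, 11 were higher at an unadjusted p under 0.05, where 8.91% of all genes were, and DESeq2 called 4 higher. EdgeR's fit of the PBS, 5-FU and cisplatin tumors called 7 higher. Beside these lists, T cell markers summed to 49.03 to 414 CPM with 5-FU and 30.6 to 81.5 CPM with cisplatin, dendritic cell markers to 47.6 to 352 and 29.8 to 81.7 CPM, and endothelial markers to 153 to 353 and 91.8 to 117 CPM. The endothelial sums did not overlap. The part of these cells in the higher inflammatory, interferon and immediate-early genes was not tested.

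**Figure D3:**
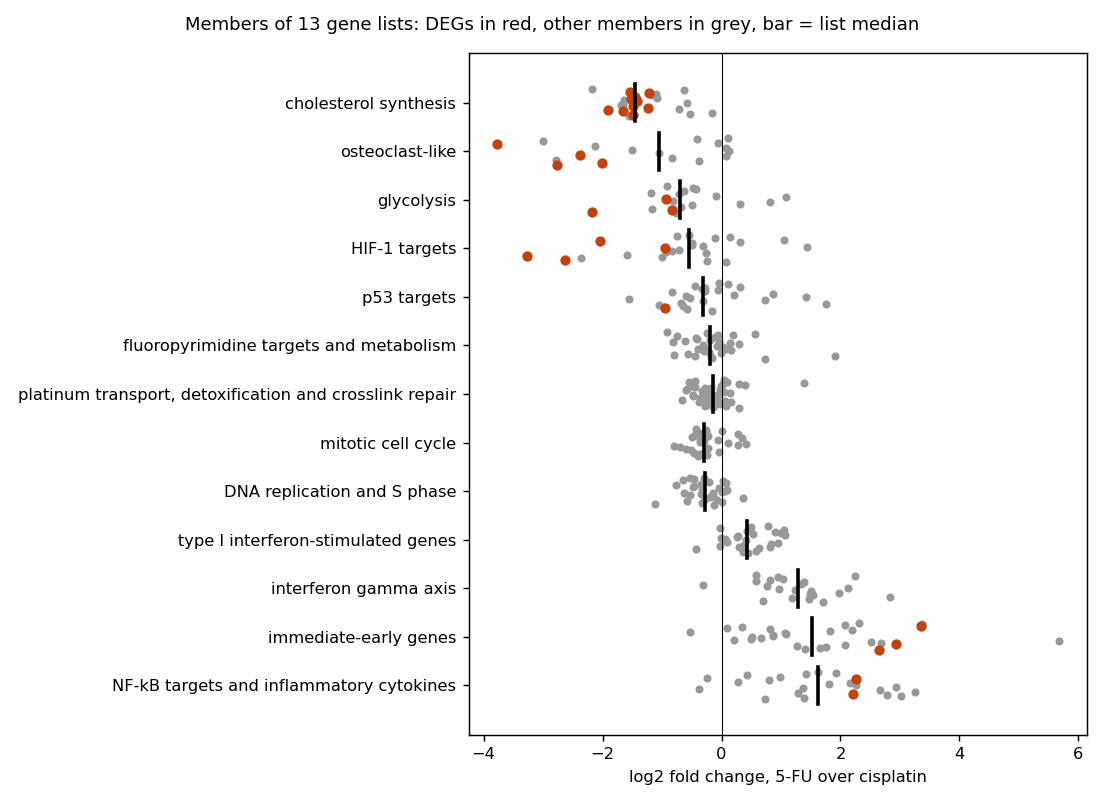
Each point is 1 gene of a list, placed by its log2 fold change of 5-FU over cisplatin, with DEGs in red and the list median as a bar. Among the lists drawn, which hold no cell type markers, the medians ran from -1.46 for cholesterol synthesis to 1.62 for NF-kB targets and inflammatory cytokines. The lists of drug targets and of the cell cycle lay near 0 with no DEG in the fit of 6 groups.

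The neighbouring granzyme genes Gzmd, Gzme and Gzmg on chromosome 14 were DEGs, lower with 5-FU than with cisplatin. The list of cytotoxic effectors as a whole did not move that way. Of its 10 genes, 6 had a log2 fold change above 0 and 4 below, with a median of 0.28. Its DEGs were 2, Gzmd and Gzme. At an unadjusted p under 0.05, 2 were higher and 4 lower, where 8.91% and 6.62% of all genes were. Granzymes are serine proteases of cytotoxic granules. Gzmd (chr14:56129556-56132608, GRCm38) had 0.822, 1.83, 1.603, 0.978 and 0.789 CPM with 5-FU and 9.22, 13.6, 19.96 and 43.1 CPM with cisplatin (log2 fold change -4.16 ± 0.89, adjusted p = 0.0351). Gzme (chr14:56117626-56120625) had 0.274, 0.791, 0.713, 0.336 and 0.502 CPM with 5-FU and 4.22, 4.61, 7.38 and 15.8 CPM with cisplatin (log2 fold change -3.95 ± 0.84). Gzmg (chr14:56156582-56159579), in no list, had 0.329, 0.108, 0.134, 0.397 and 0 CPM with 5-FU and 6.37, 5.75, 18.05 and 18.7 CPM with cisplatin and the largest absolute log2 fold change of all DEGs, -5.88 ± 1.33. Cisplatin replicate 4 was the highest tumor for each of the 3. These calls depended on single tumors. With 1 tumor left out, Gzmd and Gzme remained DEGs in 1 of the 9 fits, the one without cisplatin replicate 1, and Gzmg in 0.

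PBS tumors spread widely for these genes, with 1.74, 20.3, 5.204 and 1.53 CPM of Gzmd, and neither drug differed from PBS by the test (Gzmd adjusted p = 0.0702 for 5-FU and 1 for cisplatin). Gzmf (-3.64 ± 0.92, adjusted p = 0.0727) and Gzmc (-1.40 ± 0.45, adjusted p = 0.144) were not DEGs. Granzymes D to G are close copies, and reads may have been shared among them, so they are not independent observations. Gzmb, the granzyme most used as a marker of killer cells, had 23.1, 34.6, 28.4, 15.6 and 21.2 CPM with 5-FU and 20.9, 19.3, 14.9 and 39.9 CPM with cisplatin, and the groups overlapped (log2 fold change 0.05 ± 0.37, adjusted p = 0.956). Perforin, Prf1, overlapped too (10.5 to 56.7 against 13.9 to 25.4 CPM). Cd8a had 9.64, 21, 76.6, 5.41 and 26.1 CPM with 5-FU and 8.19, 2.36, 2.18 and 5.89 CPM with cisplatin, in the opposite direction to Gzmd, Gzme and Gzmg, and was not a DEG (adjusted p = 0.165).

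Among p53 targets, Bbc3 was lower with 5-FU and Cdkn1a missed the threshold. Bbc3, which encodes the death inducer PUMA, had 10.3, 9.28, 7.48, 8.65 and 7.03 CPM with 5-FU, 16.1, 17.9, 16.4 and 15.9 CPM with cisplatin and 16.4, 14.4, 16.9 and 19.04 CPM with PBS (log2 fold change -0.96 ± 0.21, adjusted p = 0.0455). Its cisplatin tumors lay within the PBS range. Cdkn1a, the cell cycle inhibitor p21, had 129, 170.0, 109.8, 131 and 132 CPM with 5-FU, 177, 219, 216 and 231 CPM with cisplatin and 144, 156, 129 and 135 CPM with PBS (log2 fold change -0.65 ± 0.15, adjusted p = 0.0543). Here the cisplatin tumors lay above all PBS and 5-FU tumors, and the 5-FU and PBS groups overlapped. In the fit of the PBS, 5-FU and cisplatin tumors, Cdkn1a was a DEG (adjusted p = 0.0203). Bbc3 remained a DEG in 1 of the 9 fits of 6 groups that left out a tumor.

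Trp53cor1, a long noncoding RNA induced by p53 that lies beside Cdkn1a (chr17:29057430-29079179 and chr17:29090976-29100727, GRCm38), is in no list, was chosen after its values were seen and was a DEG. It had 0.548, 0.144, 0.356, 0.244 and 0.323 CPM with 5-FU and 1.37, 1.14, 1.54 and 1.36 CPM with cisplatin (log2 fold change -2.05 ± 0.41, adjusted p = 0.0259). Ccng1 had 316, 348, 214, 310.1 and 234 CPM with 5-FU and 401, 543, 579 and 708 CPM with cisplatin, with no overlap, but missed the threshold (adjusted p = 0.107). Mdm2, the ligase that degrades p53, had a log2 fold change of -0.53 ± 0.18 (adjusted p = 0.168), and Phlda3 one of -0.60 ± 0.35 (adjusted p = 0.405). The death receptor gene Fas went the other way (0.73 ± 0.35, adjusted p = 0.314). Over the 25 listed targets the median was -0.31, with 1 DEG, and 8 lower and 1 higher at an unadjusted p under 0.05, where 6.62% and 8.91% of all genes were. The fit of the PBS, 5-FU and cisplatin tumors called 7 lower and DESeq2 5.

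Genes that handle the drugs themselves were measured too. They held 0 DEGs by edgeR in the fit of 6 groups, where 0.362% of all genes were DEGs, so that a count of 0 is near the background. Of 32 genes of fluoropyrimidine action and metabolism, log2 fold changes ran from -0.91 to 1.91 with a median of -0.19. At an unadjusted p under 0.05, 1 was higher and 2 were lower, where 8.91% and 6.62% of all genes were, and DESeq2 called 0 higher and 0 lower. EdgeR's fit of the PBS, 5-FU and cisplatin tumors called 1 higher and 2 lower. Tyms, thymidylate synthase, had 55.8, 68.2, 48.1, 56.9 and 44.6 CPM with 5-FU and 50.97, 86.5, 63.9 and 89.4 CPM with cisplatin, and these overlapped. Dpyd, which breaks 5-FU down, was the highest of the list but low in level, with 0.7397, 0.324, 1.25, 0.489 and 1.94 CPM with 5-FU and 0.25, 0.229, 0.335 and 0.178 CPM with cisplatin (adjusted p = 0.311).

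Of 46 genes of platinum transport, detoxification and crosslink repair, 43 passed the filter, with log2 fold changes from -0.66 to 1.38 and a median of -0.15. With 1 tumor left out, the median ran from -0.24 without 5-FU replicate 2 to -0.09 without 5-FU replicate 3. None passed edgeR's test in the fit of 6 groups, and 1 was lower without the 2 tumors that stood apart. At an unadjusted p under 0.05, 0 were higher and 2 lower, where 8.91% and 6.62% of all genes were, and DESeq2 called 0 higher and 0 lower. Metallothionein 1, Mt1, which binds platinum, had 25.4 to 67.5 CPM with 5-FU and 48.9 to 78.4 CPM with cisplatin.

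Proliferation genes were also measured. The 30 replication genes had a median of -0.28 and the 28 mitotic genes one of -0.29, each with 0 DEGs by edgeR in the fit of 6 groups, where 0.362% of all genes were DEGs. The mitotic median was -0.17 without 5-FU replicate 3. At an unadjusted p under 0.05, 1 replication gene was lower and 0 mitotic genes were, where 6.62% of all genes were lower, and DESeq2 called 0 and 0 lower. Mki67, the proliferation marker, had 536, 527, 226, 533 and 389 CPM with 5-FU and 479, 315, 453 and 140.4 CPM with cisplatin, and Rrm2, a subunit of ribonucleotide reductase, 153, 203, 98.3, 135 and 117 and 131, 186, 202 and 176 CPM. Both overlapped.

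The smallest adjusted p of all genes belonged to Acad10, an acyl-CoA dehydrogenase family member that is in no list. It had 6.16, 6.83, 5.39, 6.904 and 5.63 CPM with 5-FU, 12, 14.8, 16.03 and 11.9 CPM with cisplatin and 12.2, 12.2, 13.3 and 13.6 CPM with PBS (log2 fold change -1.14 ± 0.15, adjusted p = 0.00123). Acad10 remained a DEG in 9 of 9 fits that left out a tumor. A ligand and its receptor were both lower with 5-FU. Mst1, the ligand macrophage-stimulating protein, had 1.97, 2.23, 0.9798, 1.31 and 1.76 CPM with 5-FU and 6.53, 8.11, 8.15 and 4.77 CPM with cisplatin (log2 fold change -2.06 ± 0.41). Its receptor Mst1r, a tyrosine kinase, had 2.19, 2.05, 1.43, 4.28 and 2.47 CPM with 5-FU and 6.31, 20.99, 12.98 and 9.83 CPM with cisplatin (log2 fold change -2.33 ± 0.52).

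Tfrc, the transferrin receptor for iron uptake, had 89.6, 143, 46.3, 110.5 and 90.3 CPM with 5-FU and 211, 333, 346 and 309 CPM with cisplatin (log2 fold change -1.65 ± 0.36, adjusted p = 0.0412). Ckb, the brain-type creatine kinase, had 15.9, 24.6, 35.1, 23.3 and 25.9 CPM with 5-FU and 47.3, 130.2, 75.9 and 77.7 CPM with cisplatin (log2 fold change -1.73 ± 0.30, adjusted p = 0.0146). Rufy4 had 1.01, 1.08, 0.178, 1.89 and 1.15 CPM with 5-FU and 4.81, 11.6, 9.49 and 7.23 CPM with cisplatin (log2 fold change -2.95 ± 0.64). Acad10, Mst1, Tfrc and Ckb were chosen after their values were seen, whereas Mst1r and Rufy4 were named by the size of their change. In all 6 genes the 5-FU tumors lay below the cisplatin tumors.

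Among the 17 higher DEGs, Tlr12, Greb1 and C6 had the largest fold changes, from low levels. Tlr12, a Toll-like receptor, had 2.904, 2.98, 34.7, 1.77 and 10.7 CPM with 5-FU and 1.06, 0.1905, 0.335 and 0.474 CPM with cisplatin (log2 fold change 4.33 ± 0.97). Replicate 3 held most of that signal, and the lowest 5-FU tumor was still above all cisplatin tumors. Greb1, a gene known from estrogen response, had 3.15, 1.62, 1.78, 6.39 and 11.5 CPM with 5-FU and 0.625, 0.1905, 0.201 and 0.148 CPM with cisplatin (log2 fold change 4.04 ± 0.91). C6, a component of the complement membrane attack complex, had 6.25, 8.63, 26.9, 4.83 and 21.5 CPM with 5-FU and 2.41, 0.686, 0.4696 and 1.16 CPM with cisplatin (log2 fold change 3.52 ± 0.76). Lgi2, a secreted leucine-rich repeat protein, had 3.49 to 10.3 CPM against 0.859 to 1.28 CPM (2.61 ± 0.51), and the phosphatase Ptpn5 3.47 to 12.8 against 1.22 to 1.69 CPM (2.12 ± 0.48).

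The other higher DEGs were Prss35, Gm6377, Gm4841, Gm12185, Gm48273 and Sh3d21, with log2 fold changes from 1.28 for Sh3d21 to 2.92 for Gm6377. The other lower DEGs were Atf7ip2, Gm11613, Narf, Pspc1, Zc3h6, Gm4735, Gm48065, Zfp775, Dok3, Ice2, Nadsyn1, Tab1, AW549877, Haghl, Rhbdd1 and Dpy19l4. Their log2 fold changes ran from -3.42 for Atf7ip2, a gene with at most 4 counts in any 5-FU tumor, to -0.55 for Dpy19l4.

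Of the markers of 18 cell types, 0 were DEGs by edgeR in the fit of 6 groups. Of all genes 0.362% were, so that a count of 0 is near the background. At an unadjusted p under 0.05, 6 of 8 T cell markers, 5 of 8 macrophage markers and 5 of 7 endothelial markers were higher with 5-FU, where 8.91% of all genes were, and DESeq2 called 2, 2 and 1 of them. EdgeR's fit of the PBS, 5-FU and cisplatin tumors called 3, 1 and 4 of them higher, and 4.68% of all genes it tested. Cd4 had 21.2, 12.7, 105, 11.3 and 37.5 CPM with 5-FU and 10.97, 4.11, 4.998 and 9.92 CPM with cisplatin (log2 fold change 2.32 ± 0.75, adjusted p = 0.15). C1qc, a complement gene of macrophages, had 479, 544, 1828, 415 and 775 CPM with 5-FU and 385, 117, 179.8 and 314 CPM with cisplatin (log2 fold change 1.70 ± 0.49, adjusted p = 0.11). In both genes every 5-FU tumor was above every cisplatin tumor, as in 5.29% of all genes, and replicate 3 was far above the other 5-FU tumors in both. The groups were apart in this way in 0 of the 8 T cell markers, a list that does not hold Cd4. They were so in 1 of the 8 macrophage and 4 of the 7 endothelial markers. Pecam1, of endothelial cells, had 57.4, 55.3, 155, 61.3 and 89.96 CPM with 5-FU and 41.5, 34.4, 42.03 and 38.8 CPM with cisplatin (adjusted p = 0.197).

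Chil3, a chitinase-like protein of monocytes and alternatively activated macrophages, went the other way. It had 0.164, 0.144, 0.757, 0.183 and 0.538 CPM with 5-FU, 4.03, 1.07, 2.92 and 4.502 CPM with cisplatin and 0.446, 0.7797, 0.108 and 0.166 CPM with PBS. Every cisplatin tumor was above every PBS and 5-FU tumor, and the log2 fold change was -3.16 ± 0.77 (adjusted p = 0.0595), so that it was not a DEG. With ICB the log2 fold change was -4.68 and Chil3 was a DEG (adjusted p = 0.0152). Monocyte markers as a whole summed to 152 to 426 CPM with 5-FU and 235 to 491 CPM with cisplatin, and these overlapped.

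The labelled origin of the tumors was checked on mesothelial markers. Msln, mesothelin, had 133, 177, 45.02, 118 and 66.7 CPM with 5-FU, 212, 308, 297 and 264 CPM with cisplatin and 327, 358, 289 and 271 CPM with PBS (log2 fold change of 5-FU over cisplatin -1.32 ± 0.71, adjusted p = 0.372). It was present in all of these tumors, and the 5-FU tumors lay below the cisplatin tumors. Wt1 was at 0.467 to 1.25 CPM with 5-FU and 0.101 to 0.503 CPM with cisplatin, and Krt8 at 0.0445 to 1.53 and 1.41 to 6.16 CPM. Upk3b, Lrrn4 and Krt18 did not pass the filter on low counts. Skeletal muscle markers summed to 9.24 to 1576 CPM with 5-FU (median 1216) and 108 to 334 CPM with cisplatin (median 152). All 7 had a log2 fold change above 0, with a median of 2.35, and 0 had an unadjusted p under 0.05. Adipocyte markers summed to 25.1 to 276 CPM with 5-FU and 39.4 to 80.6 CPM with cisplatin. The part of muscle and fat in the results above was not tested. Erythroid markers summed to 1.74 to 97.5 and 39.5 to 118 CPM.

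With ICB, every DEG between the drugs kept its direction. The contrast of 5-FU+ICB with cisplatin+ICB shares no tumor with that of the single agents. It gave 55 DEGs (0.297% of all genes), 19 higher (0.103%) and 36 lower (0.194%) with 5-FU+ICB. It gave 4 without the 2 tumors that stood apart, 1 without 5-FU+ICB replicate 1 and 2146 without 5-FU+ICB replicate 2. Without 5-FU+ICB replicate 4 or 5 it gave 303 or 3, and without cisplatin+ICB replicates 1 to 5 it gave 11, 20, 20, 13 and 1128. All 67 DEGs of the single agents had the same sign with ICB, as did 80.2% of all genes, and 53 of them also had an unadjusted p under 0.05, where 25.7% of all genes did. The median log2 fold change of the 50 lower genes was -1.44 without ICB and -0.89 with it, and that of the 17 higher genes 2.51 and 0.89. The 67 were chosen on their values without ICB, so the difference between these medians is not read.

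Of the 67, 11 were DEGs with ICB too, which is 16.4% of the 67 and 20.0% of the 55. Since the 55 fell to 1 without 5-FU+ICB replicate 1, 3 without its replicate 5 and 4 without the 2 tumors that stood apart, the overlap can be no larger than that in those fits. They were Acad10, Ankrd37, Car9, Gm48065, Kdm3a, Mst1, Pdk1, Pspc1, Tab1, Tfrc and Trp53cor1, all lower with 5-FU. The set holds the 4 HIF-1 target DEGs. Car9 had a mean of 3.04 ± 1.06 CPM (SD, n = 5) with 5-FU+ICB and 15.5 ± 17.2 CPM (SD, n = 5) with cisplatin+ICB (log2 fold change -2.35, adjusted p = 0.0348). Pdk1 had 21.96 ± 4.58 CPM (SD, n = 5) and 71.9 ± 64.9 CPM (SD, n = 5), and differed by -1.71 in log2 (adjusted p = 0.0318). Tfrc had 50.8 to 128 CPM with 5-FU+ICB and 133 to 497 CPM with cisplatin+ICB (log2 fold change -1.61, adjusted p = 0.0384).

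The cholesterol synthesis genes had a median log2 fold change of -0.74 with ICB, and 1 of them was a DEG there. Fdps had a log2 fold change of -1.24 (adjusted p = 0.0711) and Sqle one of -1.07 (adjusted p = 0.0687). The immediate-early genes had a median of 0.46 with ICB, and 0 were DEGs. Nr4a1 had a log2 fold change of 0.70 (adjusted p = 0.396), and Fos one of 0.03 (adjusted p = 0.978). Nr4a1 ranged over 11.1 to 63.3 CPM with 5-FU+ICB and 5.51 to 30.2 CPM with cisplatin+ICB, which overlapped. Acp5 had a log2 fold change of -1.94 (adjusted p = 0.0651) and Gzmd one of -3.16 (adjusted p = 0.0631).

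The difference of the drug contrast without and with ICB was tested by itself in the same model. By edgeR 0 genes passed, 424 had an unadjusted p under 0.05, which is 2.29% of all genes, and DESeq2 called 1. Of the 67 DEGs, 21 had an unadjusted p under 0.05 for this difference. The 67 were chosen on their values without ICB, which are part of this difference, so this count is not read. For Nr4a1 the difference was 2.65 (adjusted p = 1). A contrast that was past the threshold without ICB and not with it is therefore not shown to differ between the settings.

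**Figure D4:**
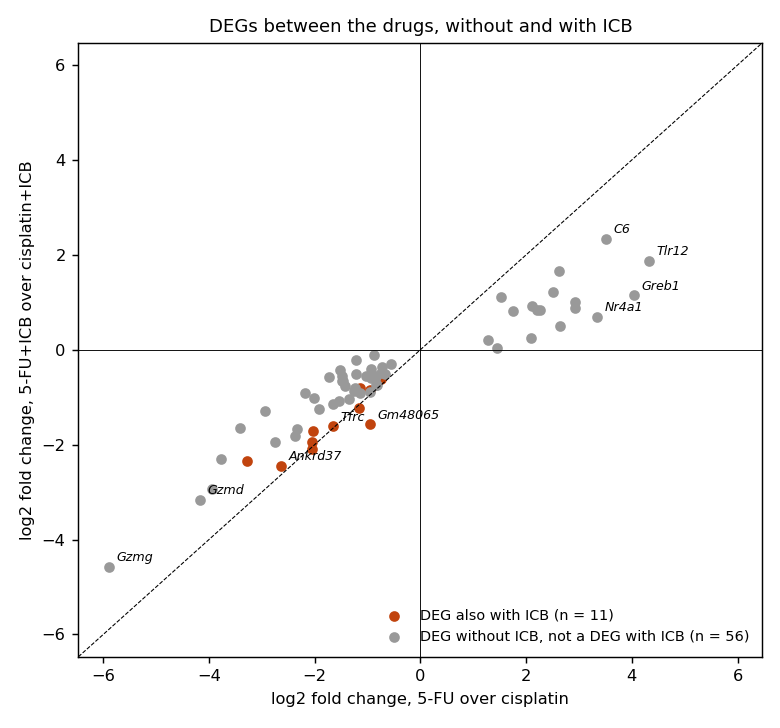
Each point is 1 of the 67 DEGs between 5-FU and cisplatin, with its log2 fold change without ICB on the horizontal and with ICB on the vertical axis. All points lie in the quadrants of equal sign, and the 11 in red, which were DEGs in both contrasts, were all lower with 5-FU.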

How the data were processed

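Bulk RNAseq data of 28 AB1-HA tumors were used, 1 tumor per mouse as far as the study describes. The authors assigned reads to GRCm38/mm10 transcripts with kallisto 0.46.0 after bcl2fastq 2.20.0.422 (both from the submitters' processing notes), used tximport for gene totals, and deposited the estimated counts without scaling, in 2 matrices with 9 tumors (PBS, ICB) in common. Values that were not whole (23.7%) were rounded. Names of 26 genes had been turned into dates and hold 0.184% of the counts.

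Genes were filtered with filterByExpr by group, which left 18521, normalized by TMM and fitted with edgeR 4.0.16 (glmQLFit, glmQLFTest) in R 4.3.3 over all 6 groups, with Benjamini-Hochberg adjustment over all genes. Standard errors were derived from the F statistic. DESeq2 1.42.0 was an alternative. Tables and figures were made in Python 3.11.15. The members, the 42 gene lists (632 genes, 13 not tested) and the tests were chosen with earlier results of these data known. Lists were described by counts and medians and not tested.

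Named genes were up to 10 DEGs a direction, ranked by change, with no overlap and a mean of 50 or more counts over the 9 tumors, members of a list, or marked as chosen after their values were seen, and the remaining DEGs are listed by name. In simulated data for 5-FU against cisplatin with 18521 genes, edgeR called 32% of genes changed by log2 1 and 79% of those changed by log2 2, and 8.26% of its calls were unchanged genes, against 21.3% of DESeq2's. The simulation drew every group with the same spread per gene and held no tumor that stood apart. No gene of low count was changed in it, so these rates may not hold for the tumors here. Total counts were 23541485 to 33950555 per tumor. Values at 3 counts or under were taken as the floor, and no DEG had all tumors of either group at it. No group had a batch label. Some members of the lists are counted but not reported here by name.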

Additional observations from a re-analysis of the deposited data

Results flagged for a closer look

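Among 176 groups of 4 or 5 values looked at, for 85 genes and the library measures, 8 had 1 tumor far from the others of its group, and chance flags about 1 in 20 groups. In 5-FU replicate 3, Tlr12 was 34.7 CPM, Aldoc 3.96 CPM, Cd4 105 CPM and C1qc 1828 CPM, and the mitochondrial share was 6.80%, each the highest of the 5-FU tumors. In cisplatin replicate 1, Greb1 was 0.625 CPM and the mitochondrial share 2.76%, each the highest of the cisplatin tumors. In cisplatin replicate 4, Egr1 was 55.9 CPM, the lowest of the cisplatin tumors.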

How the results depend on the processing

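Counts of DEGs moved with the tumors in the fit and with the tool, and the cause was not tested. For 5-FU against cisplatin (17 higher, 50 lower), DESeq2 called 487 and 176, no filter 4 and 21, the 2 groups alone 509 and 434, the PBS, 5-FU and cisplatin tumors 805 and 542, the fit without the 2 tumors that stood apart (chosen after seeing the data) 739 and 752, and an unadjusted p under 0.05 with the fold threshold 1611 and 921. Leaving out 1 tumor gave 0 to 40 higher and 1 to 40 lower. DESeq2's size factors in edgeR, a minimum of 10 counts in every tumor and no fold threshold kept both counts within 1.5 times. For 5-FU against PBS (825), the counts were 2096 by DESeq2, 361 with no filter, 545 with a minimum of 10 counts, 4634 in the fit of the PBS, 5-FU and cisplatin tumors, 5379 without the 2 tumors, 4763 unadjusted and 45 to 971 with 1 tumor left out. For cisplatin against PBS (0) they were 3 by DESeq2 and 262 unadjusted. For 5-FU+ICB against cisplatin+ICB (55) they were 1620 by DESeq2, 4 without the 2 tumors, 4202 unadjusted and 1 to 2146 with 1 tumor left out. For the difference between these contrasts (0) they were 1 by DESeq2 and 357 unadjusted.

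The replicate numbers in the labels did not pair the tumors. This was read from each tumor's deviations from the mean log CPM of its group, not from its levels. Such deviations of same-numbered 5-FU and cisplatin tumors correlated at -0.06, 0.22, -0.30 and -0.32. By this measure, 1 of 4 numbered 5-FU tumors correlated best with the cisplatin tumor of its own number. With the replicate number as a block, 0 genes were higher and 5 lower for 5-FU against cisplatin, and 162 were called for 5-FU against PBS.

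Of 1429 values of 85 named genes under the alternatives, 1023 kept direction and call, 297 were no longer past the threshold, 104 were newly past it and 5 changed sign. Those 5 were all of Gzmb, whose log2 fold change ranged from -0.12 to 0.45 with 1 tumor left out and was below 0 without 5-FU replicate 2 (-0.11) or 3 (-0.0071), or cisplatin replicate 1 (-0.0093), 2 (-0.04) or 3 (-0.12). The median of the mesothelial and tumor cell list was -0.13 by DESeq2, -0.092 with no filter, -0.36 with a minimum of 10 counts and -0.39 in the 2 groups alone, and that of the keratinocyte list -0.27 with a minimum of 10 counts, each against a median above 0. With 1 tumor left out, the difference in mitochondrial share ranged from 1.13 to 2.15 percentage points, that in total counts from -1995543 to 400392 (225204 without 5-FU replicate 3), and that in genes with a count from -85 to 585.

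Depth limits what can be said of genes near the floor of 3 counts in a tumor.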
